A study of Mus musculus with 9 samples.

Results

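Fabp7 and 7 other genes used as markers of hippocampal stem cells (Fabp5, Prom1, Msi1, Msi2, Hopx, Thrsp and Lpar1) were followed by their symbols through a gene expression table of mouse neural stem cells. All 8 of 8 were found among the 23420 genes of the table, and all 8 belonged to the 13839 genes that reached at least 1 TPM (a transcript abundance: reads per gene length, scaled to a fixed total in each library) in at least 3 libraries and were tested. The cells came from the hippocampus of wild-type C57BL/6J mice at 2 days of age. They were kept in a medium lacking the growth factors bFGF and EGF, so that every group, the controls included, was in a differentiating culture. There were 3 groups of 3 libraries: the DMSO vehicle, 3 uM NAT and 3 uM P7C3-A20. NAT is described by the submitters only as a new small molecule, and P7C3-A20 is a compound known for its effects on the survival of newborn hippocampal neurons. The labels call the libraries biological replicates but do not say whether they came from separate cultures or animals, and the time under treatment is not given in the sources used here, so p-values measure only the spread between these libraries.

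Fatty acid binding proteins are small carriers that move fatty acids through the cytoplasm. Fabp7, the brain type, is a classical marker of radial glia, the stem cells of the developing brain, and remains in the radial glia-like stem cells and astrocytes of the hippocampus, where Fabp5 is also made. Msi1 and Msi2 are RNA-binding proteins that act on translation in stem cells, Prom1 is a membrane protein of stem cell protrusions, Hopx is a homeodomain protein without DNA binding that marks quiescent stem cells, Thrsp is a nuclear regulator of fatty acid synthesis, and Lpar1 is a receptor for lysophosphatidic acid. Fabp7, Thrsp and Msi2 are shown here by their promoters. Fabp7 was taken because it is by far the most abundant of the genes. Thrsp and Msi2 were taken because their levels correlated over the 9 libraries (Pearson's r 0.91, but 0.58 without P7C3-A20 replicate 3). Each sequence is the 250 bases upstream of a start site, from RefSeq, build GRCm38.p6, 5′ to 3′ on the gene's strand, and the capitals mark matches on either strand to a CCAAT box (CCAAT, or ATTGG on the other strand), a GC box (GGGCGG or CCGCCC) or the E-box CACGTG. In Msi2, a GC box and the E-box are adjacent and appear as a single run of capitals.
Fabp7, chr10:57784673-57784922, plus strand: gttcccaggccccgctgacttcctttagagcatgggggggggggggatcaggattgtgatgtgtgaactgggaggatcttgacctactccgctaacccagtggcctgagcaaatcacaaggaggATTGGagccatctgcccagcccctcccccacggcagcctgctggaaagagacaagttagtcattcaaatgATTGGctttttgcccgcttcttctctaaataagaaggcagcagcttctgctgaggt
Thrsp, chr7:97417551-97417800, minus strand: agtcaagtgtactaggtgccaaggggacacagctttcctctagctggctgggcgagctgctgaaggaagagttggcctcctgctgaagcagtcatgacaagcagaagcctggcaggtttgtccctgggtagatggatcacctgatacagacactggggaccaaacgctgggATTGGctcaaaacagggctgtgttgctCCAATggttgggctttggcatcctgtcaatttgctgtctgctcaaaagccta
Msi2, start site 1, chr11:88718278-88718527, minus strand: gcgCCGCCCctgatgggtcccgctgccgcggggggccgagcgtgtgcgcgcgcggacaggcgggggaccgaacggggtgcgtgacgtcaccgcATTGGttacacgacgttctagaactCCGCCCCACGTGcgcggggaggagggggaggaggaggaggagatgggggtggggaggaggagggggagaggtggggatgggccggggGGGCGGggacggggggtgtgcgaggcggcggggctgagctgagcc
The Fabp7 and Thrsp windows each held 2 CCAAT boxes, 2 or more of which were found in 10.09% of all 32851 promoter windows of this length, and no GC box. Their GC content was 54.8% and 53.6%, near the median of 52.4% over all windows, with 4 and 2 CpG dinucleotides. The Msi2 window was of another kind, with 75.6% GC, 29 CpG dinucleotides, 3 GC boxes, 1 CCAAT box and 1 CACGTG. At least 1 match was found in 33.85% of all windows for CCAAT, 32.74% for GGGCGG and 6.02% for CACGTG. The search also covered TATAAA, the RBPJ core GTGGGAA through which Notch acts, and the octamer ATGCAAAT, present in 12.37%, 5.42% and 1.6% of windows. None of these letters stood in the windows of the 6 members that the table holds (Fabp7, Prom1, Msi2, Hopx, Thrsp and Lpar1). Fabp5 and Msi1 were not matched. A match describes the letters only.

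The depth, recovered as whole reads from the steps of the TPM values, was 12028821 to 14109316 reads in DMSO, 12994081 to 13803959 in NAT and 15885313 to 17217584 in P7C3-A20. P7C3-A20 replicate 3 stood apart from the rest in its dependence on GC content (described with the Musashi genes). Values that it moved strongly are given with and without it where both were computed. The cultures carried neural stem cell genes at high levels in DMSO, among them Vim (3791 ± 48.3 TPM, SD, n = 3), Ednrb (2808 ± 75.2 TPM) and Slc1a3 (2128 ± 31.6 TPM). Markers of other types were also present. The summed level of 9 oligodendrocyte lineage markers was 3150 to 3839 TPM over the 9 libraries. That of 6 markers of maturing astrocytes was 2856 to 3245 TPM, and that of 9 neuronal markers 699.8 to 769.4 TPM. The neuronal sum was mostly Map2 (640 TPM in DMSO), with Tubb3 next at 46.9 TPM and Stmn2 lowest at 0.667 TPM. The oligodendrocyte lineage sum was mostly Olig1 (2158 TPM in DMSO) and Olig2 (824 TPM), with Mbp at 3.84 TPM and Mog at 0.715 TPM. The microglial genes Cx3cr1, C1qc and Trem2, the endothelial genes Cldn5 and Cdh5 and both blood genes (Hba-a1 and Hbb-b1) were at 0 in all 9 libraries. Other genes of the microglial and endothelial lists were not. In DMSO, Cd68 stood at 7.29 ± 0.831 TPM, P2ry12 at 0.928 ± 0.149 TPM and the endothelial Flt1 at 4.13 ± 0.134 TPM. In bulk RNA, a difference in the number of cells of a type and a difference in RNA per cell cannot be told apart.

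The 8 genes spanned 7864-fold in mean TPM, a scale corrected for gene length, so that levels can be set side by side between genes. Averaged over the 9 libraries, Fabp7 stood at 11515 TPM, Fabp5 at 1892, Thrsp at 348, Msi2 at 205, Msi1 at 182, Hopx at 64.7, Prom1 at 8.48 and Lpar1 at 1.46. The ranges over the 9 libraries did not overlap between neighbours in this order, except for Msi2 and Msi1, of which Msi2 was the higher in 8 of 9 libraries. Fabp7 exceeded Fabp5 by 6.09-fold and Prom1 lay 7.62-fold below Hopx. Fabp7 was the first or the second row of the whole table in each library, sharing these places with the ribosomal RNA gene Rn45s. The lower end rested on few reads, with 149 to 218 reads per library for Prom1 and 17 to 37 for Lpar1, against 39516 to 51692 for Fabp7.

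**Figure D1:**
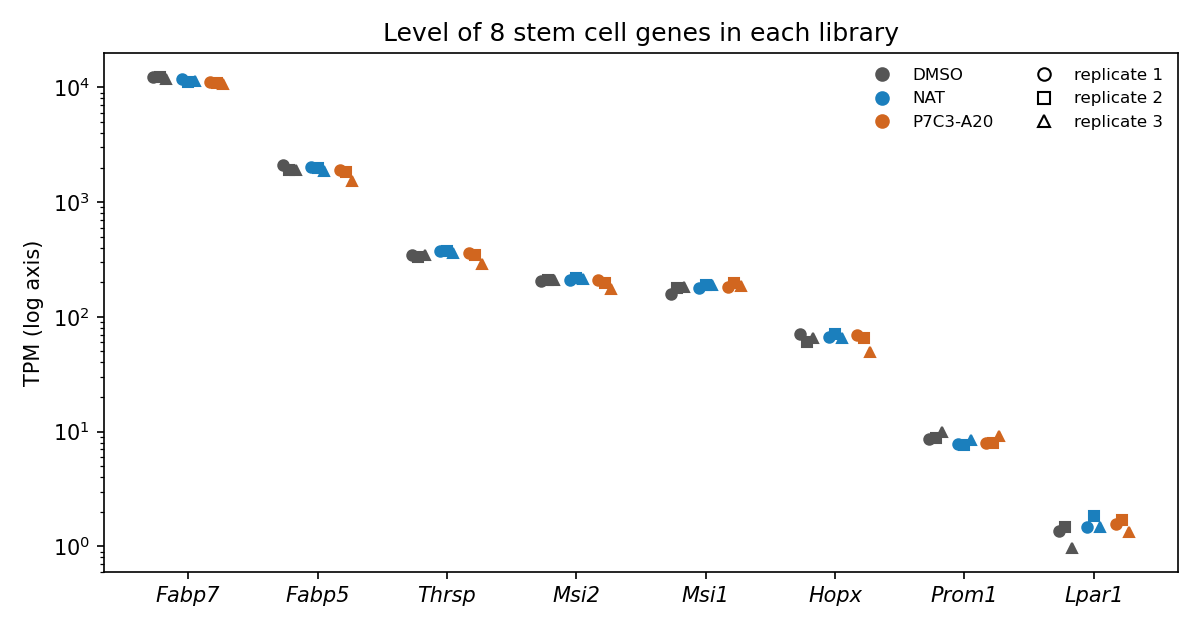
TPM on a log axis (vertical) of the 8 genes (horizontal, in the order of their means) in each of the 9 libraries, coloured by group, with the marker shape giving the replicate. The genes spread from 0.960 TPM (Lpar1 in DMSO replicate 3) to 12411 TPM (Fabp7 in DMSO replicate 2), and the 3 groups lie close together within each gene.

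No member passed the test in any of the 3 comparisons (limma on log2(TPM + 1), Benjamini-Hochberg over 13839 genes, adjusted p below 0.05). The background was as sparse: the test called 0.0289% of all genes between NAT and DMSO, 0.0217% between P7C3-A20 and DMSO, and 0% between the compounds. At an unadjusted p below 0.05, 1, 2 and 2 of the 8 members stood in those comparisons, against 1615, 2194 and 2188 of all genes. With voom, the weighted limma fit on recovered reads, 29, 273 and 301 genes passed. Both comparisons with DMSO use the same 3 DMSO libraries, so that their values are not independent.

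Fabp7 was the only member whose libraries lay apart from those of DMSO with both compounds. Its level was 12327, 12411 and 11868 TPM in the DMSO libraries, 11746, 11168 and 11320 TPM in NAT, and 11236, 10924 and 10636 TPM in P7C3-A20. Every treated library lay below every DMSO library, while NAT and P7C3-A20 overlapped. The means were 12202 ± 292 TPM in DMSO, 11411 ± 300 TPM in NAT and 10932 ± 300 TPM in P7C3-A20 (SD, n = 3). With NAT, the log2 fold change was -0.10 ± 0.04 (SE; limma adjusted p = 0.403), with a 95% interval from -12.1% to -0.475%. With P7C3-A20, it was -0.16 ± 0.04 (limma adjusted p = 0.158), with an interval from -15.8% to -4.66%. The difference between the compounds, NAT minus P7C3-A20, was 0.06 ± 0.04 (limma adjusted p = 0.478), with an interval from -1.91% to 11.1%. With the trend of each library on GC content removed, that difference was -0.018.

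The Fabp7 calls depended on the test. With voom on the recovered reads, Fabp7 passed in both comparisons with DMSO, at -0.13 (adjusted p = 0.0485) for NAT and -0.17 (adjusted p = 0.00901) for P7C3-A20. Leaving out 1 library at a time gave voom adjusted p from 0.029 to 0.456 for NAT, above 0.05 without DMSO replicate 1 or 2 or NAT replicate 2 or 3, and from 1.569e-04 to 0.118 for P7C3-A20, above 0.05 without DMSO replicate 1 or 2. With the trend of each library on GC content removed before voom, the values were -0.13 (adjusted p = 0.0268) and -0.10 (adjusted p = 0.0977). Leaving out 1 library there gave an adjusted p below 0.05 in 1 of 6 settings for NAT (0.0175 to 0.307; only without DMSO replicate 3) and in 2 of 6 for P7C3-A20 (0.00365 to 0.405; without DMSO replicate 3 or P7C3-A20 replicate 3). In the limma fit on TPM, removing that trend gave -0.13 (adjusted p = 0.286) and -0.11 (adjusted p = 0.372). Quantile normalization gave 0.28 and 0.14, the opposite sign. That scaling gives each rank the same value in every library, so that a gene in the first or second place carries only its rank.

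Fabp5, the epidermal type of the same carrier family, had nearly equal means in DMSO and NAT, at 1961 ± 107 and 1957 ± 69.6 TPM, and 1758 ± 209 TPM in P7C3-A20. Its level was 2084, 1899 and 1899 TPM in DMSO, 2018, 1972 and 1881 TPM in NAT, and 1919, 1835 and 1522 TPM in P7C3-A20. The groups overlapped, and P7C3-A20 replicate 3 alone was well below the others. The log2 fold change was -0.002 ± 0.07 for NAT (limma adjusted p = 0.998; interval -0.17 to 0.16) and -0.16 ± 0.07 for P7C3-A20 (limma adjusted p = 0.319), the latter -0.06 without P7C3-A20 replicate 3. The ratio of Fabp7 to Fabp5 within a library was 5.91, 6.54 and 6.25 in DMSO, 5.82, 5.66 and 6.02 in NAT, and 5.86, 5.95 and 6.99 in P7C3-A20. It did not pass in any comparison (exact two-sided permutation p = 0.2 between NAT and DMSO, 0.9 between P7C3-A20 and DMSO, and 0.4 between the compounds). With 3 libraries against 3, that test cannot go below 0.1. NAT minus P7C3-A20 was -0.10 on the log2 scale, -0.16 with the GC trend removed (exact permutation p = 0.1) and -0.018 without P7C3-A20 replicate 3.

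Few other members of the family of intracellular lipid binding proteins reached the level needed for the test. Of 13 listed, 4 were tested, and none passed in any comparison, against the background given above. Fabp3, the heart type, was at 2.78 ± 1.03 TPM in DMSO and Crabp2, a retinoic acid carrier, at 1.42 ± 0.524 TPM. Of 6 receptors that fatty acids or retinoids can reach, 5 were tested and none passed. The most abundant was Rxrb, a retinoid X receptor, at 38.2 ± 1.46 TPM in DMSO, 36.5 ± 2.46 TPM in NAT and 40.6 ± 3.70 TPM in P7C3-A20. Ppard, a fatty acid-activated receptor, stood at 33.0 ± 3.29, 34.0 ± 1.08 and 35.4 ± 2.86 TPM in the same order.

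**Figure D2:**
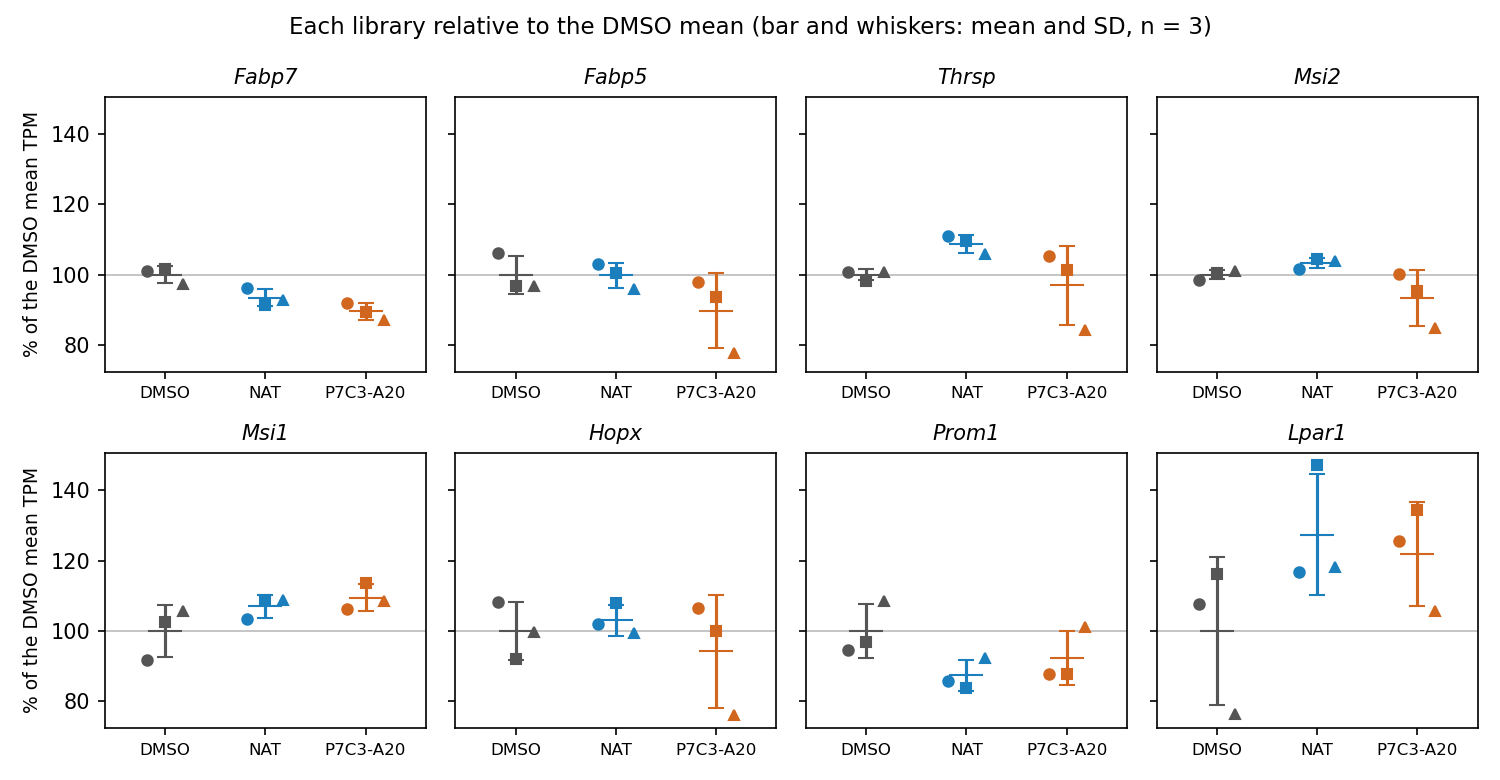
Each library's TPM as a percent of the DMSO mean (vertical, not starting at 0) for the 8 genes, by group (horizontal), with circle, square and triangle for replicates 1, 2 and 3, and bar and whiskers for the mean and SD of 3 libraries. Fabp7 in the treated libraries lies between 87.2% and 96.3% of the DMSO mean, and P7C3-A20 replicate 3 is the lowest point for Fabp5 (77.6%), Hopx (76.0%) and Thrsp (84.2%).

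Thrsp, a partner of the lipogenic enzymes, was higher in each NAT library than in any DMSO library but did not pass. Its level was 344, 335 and 344 TPM in DMSO, 378, 374 and 361 TPM in NAT, and 360, 346 and 287 TPM in P7C3-A20. The NAT libraries lay above all 6 others, and P7C3-A20 replicate 3 was the lowest of the 9. The log2 fold change was 0.12 ± 0.07 for NAT against DMSO (limma adjusted p = 0.494), -0.05 ± 0.07 for P7C3-A20 against DMSO (limma adjusted p = 0.745) and 0.17 ± 0.07 for NAT against P7C3-A20 (limma adjusted p = 0.267). Without P7C3-A20 replicate 3, the second was 0.05 and the third 0.07. With NAT, the 6 markers of maturing astrocytes were all higher on average (none called; summed level 3082 to 3245 TPM against 2856 to 3032 TPM in DMSO), while 8 of 8 tested neuronal markers (722.1 to 769.4 TPM against 741.4 to 766.9 TPM) and 7 of 8 tested oligodendrocyte lineage markers (3150 to 3323 TPM against 3313 to 3455 TPM) had negative log2 fold changes, none called. Over all genes tested, 63.5% were positive for NAT against DMSO. For NAT against P7C3-A20 (3299 to 3839 TPM in P7C3-A20), 8 of 8 oligodendrocyte lineage markers were negative, where 54.0% of all genes were positive. The part of these differences in the Thrsp level was not tested.

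Around Thrsp, most genes of fatty acid synthesis had positive values with NAT, without passing. Of 11 listed, 10 were tested. None passed in any comparison. With NAT, 9 had a positive log2 fold change and 1 a negative one, where 63.5% of all genes tested were positive. The median was 0.09 beside 0.03 over all genes tested. With P7C3-A20 the counts were 8 and 2, where 55.2% of all genes were positive, with a median of 0.03 beside 0.01. Scd2, a fatty acid desaturase and the most abundant, was at 2556 ± 39.6 TPM in DMSO, 2750 ± 61.9 TPM in NAT and 2609 ± 180 TPM in P7C3-A20. Me1, the malic enzyme that supplies NADPH, was at 111 ± 3.06, 131 ± 6.08 and 118 ± 8.25 TPM, with a log2 fold change of 0.24 for NAT (limma adjusted p = 0.210). Mid1ip1, the closest relative of Thrsp, was at 193 ± 11.2, 204 ± 6.40 and 207 ± 7.31 TPM.

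The Musashi genes lay close in TPM, which depends on the gene lengths used, and differed in their order across groups. Msi1 was at 158, 177 and 182 TPM in DMSO, 178, 188 and 188 TPM in NAT, and 183, 196 and 187 TPM in P7C3-A20. Msi2 was at 204, 208 and 209 TPM in DMSO, 211, 216 and 215 TPM in NAT, and 208, 198 and 176 TPM in P7C3-A20. For Msi1, each P7C3-A20 library was above each DMSO library. For Msi2, each NAT library was above each library of the other groups. For Msi1, the log2 fold change was 0.10 ± 0.05 for NAT (limma adjusted p = 0.468) and 0.13 ± 0.05 for P7C3-A20 (limma adjusted p = 0.250). For Msi2, it was 0.05 ± 0.05 for NAT (limma adjusted p = 0.751), -0.10 ± 0.05 for P7C3-A20 (limma adjusted p = 0.366) and 0.15 ± 0.05 for NAT against P7C3-A20 (limma adjusted p = 0.231). Without P7C3-A20 replicate 3, the P7C3-A20 value of Msi2 was -0.032 and that between the compounds 0.079. With the GC trend removed they were -0.048 and 0.065, and the Msi2 ranges overlapped between NAT and both other groups. The P7C3-A20 value of Msi1 was 0.039 with the GC trend removed, where its range (175.4 to 189.4 TPM) overlapped that of DMSO (167.3 to 182.9 TPM). Without DMSO replicate 1, the Msi1 values were 0.039 for NAT and 0.072 for P7C3-A20.

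The ratio of Msi1 to Msi2 was highest in P7C3-A20 in the deposited values. It was 0.777, 0.851 and 0.871 in DMSO, 0.846, 0.869 and 0.873 in NAT, and 0.884, 0.993 and 1.07 in P7C3-A20. All 3 P7C3-A20 libraries lay above the 6 others, and in replicate 3 alone the TPM of Msi1 exceeded that of Msi2. On the log2 scale the difference from DMSO was 0.23 (exact permutation p = 0.1, the smallest possible, and 0.3 adjusted over the 6 ratio tests). NAT minus P7C3-A20 was -0.18 (exact permutation p = 0.1). The transcripts differ in base composition, with 57.9% GC for Msi1 and 42.3% for Msi2 in the longest GENCODE transcript. The libraries differed in the slope of log2 level on GC content, from -0.066 to 0.0384 per 10 GC points in 8 libraries and 0.122 in P7C3-A20 replicate 3. With each library's GC trend removed, the difference from DMSO was 0.09 (exact permutation p = 0.3), and NAT minus P7C3-A20 was -0.03 (exact permutation p = 0.5). Without P7C3-A20 replicate 3, the deposited values gave 0.17 and -0.12.

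**Figure D3:**
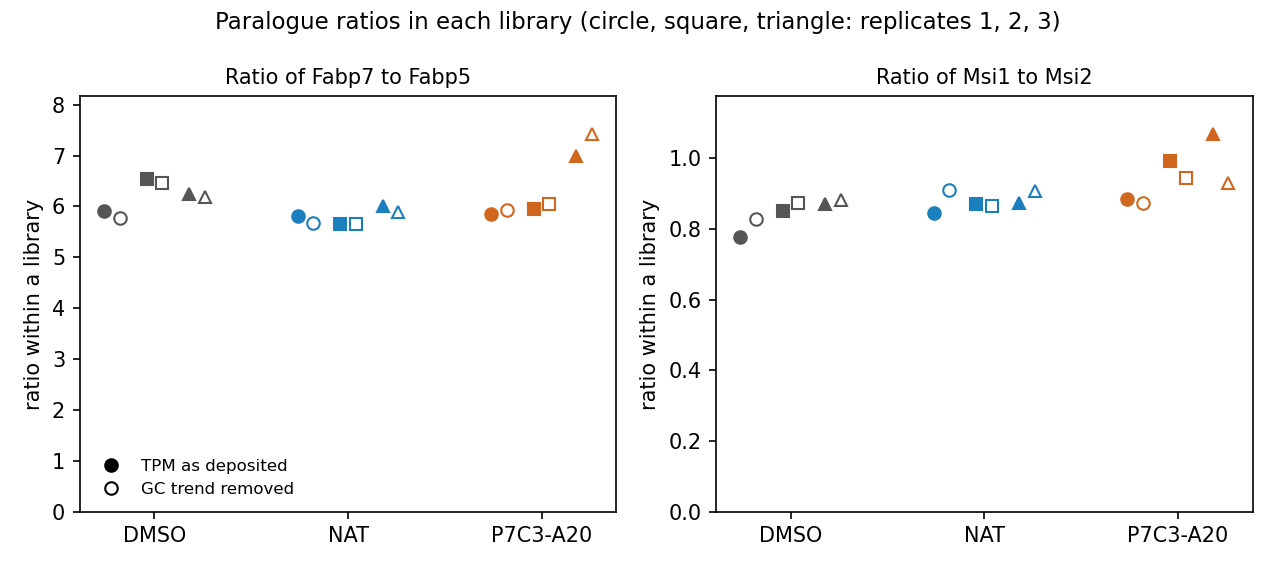
Ratio within each library (vertical, from 0) of Fabp7 to Fabp5 and of Msi1 to Msi2, by group (horizontal), with filled markers for deposited TPM, open markers after removal of each library's GC trend, and marker shapes for replicates. The filled Msi1 to Msi2 ratios of P7C3-A20 (0.884 to 1.07) lie above all others (at most 0.873), and the open ones (0.872 to 0.945) overlap with NAT and DMSO.

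Numb and Numbl, the membrane-associated Notch antagonists of which Numb is the known Musashi target, did not pass. Numb was at 19.4 ± 2.34 TPM in DMSO, 20.6 ± 0.304 TPM in NAT and 20.1 ± 0.513 TPM in P7C3-A20. Numbl was at 37.3 ± 1.34, 37.1 ± 1.02 and 42.8 ± 2.53 TPM, with a log2 fold change of 0.19 for P7C3-A20 (limma adjusted p = 0.166). Prom2, the relative of Prom1, was too low to be tested.

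Hopx was at 70.7, 60.1 and 65.1 TPM in DMSO, 66.5, 70.4 and 64.9 TPM in NAT, and 69.6, 65.3 and 49.6 TPM in P7C3-A20. The groups overlapped, with P7C3-A20 replicate 3 below all others. The log2 fold change was 0.04 ± 0.11 for NAT (limma adjusted p = 0.896) and -0.10 ± 0.11 for P7C3-A20 (limma adjusted p = 0.685). The latter was 0.05 without P7C3-A20 replicate 3.

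Prom1, known as CD133, was at 8.60, 8.82 and 9.88 TPM in DMSO, 7.82, 7.64 and 8.40 TPM in NAT, and 7.996, 7.999 and 9.21 TPM in P7C3-A20. The NAT libraries were all below the DMSO libraries, while P7C3-A20 overlapped with both. The log2 fold change was -0.17 ± 0.09 for NAT (limma adjusted p = 0.454) and -0.10 ± 0.09 for P7C3-A20 (limma adjusted p = 0.581), the latter -0.16 without P7C3-A20 replicate 3. The ependymal gene Foxj1, a marker of ciliated cells in which Prom1 is also made, was at 17.1 ± 1.104 TPM in DMSO. It was at 19.7 ± 1.103 TPM in NAT and 22.1 ± 1.30 TPM in P7C3-A20, and was not called. Other ependymal markers were low and did not share this order. Rarres2 was at 1.65, 0.696 and 1.20 TPM and Ccdc153 at 0.903, 1.05 and 1.03 TPM in DMSO, NAT and P7C3-A20, neither called, and Tmem212 was too low to be tested.

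Lpar1 was near the floor of detection. It was at 1.35, 1.46 and 0.960 TPM in DMSO, 1.47, 1.85 and 1.49 TPM in NAT, and 1.58, 1.69 and 1.33 TPM in P7C3-A20. The NAT libraries lay above the DMSO libraries by a narrow margin, and P7C3-A20 overlapped with both. The log2 fold change was 0.21 ± 0.15 for NAT (limma adjusted p = 0.617; interval -0.13 to 0.54) and 0.17 ± 0.15 for P7C3-A20 (limma adjusted p = 0.609). Without DMSO replicate 3, the lowest library, these were 0.11 and 0.072. Lpar1 is used to mark stem cells of the hippocampus in transgenic mice.

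The enzymes of lysophosphatidic acid turnover Ppap2b and Enpp2 and the receptors Lpar4 and Lpar6 stood well above Lpar1. Of 9 listed, 7 were tested and none passed in any comparison. Ppap2b, a phosphatase that degrades the ligand, was at 1061 ± 41.3 TPM in DMSO, 1173 ± 42.4 TPM in NAT and 1167 ± 46.9 TPM in P7C3-A20. Enpp2, the autotaxin enzyme that makes the ligand, was at 303 ± 5.54, 285 ± 7.16 and 284 ± 6.85 TPM. The receptor Lpar4 was at 19.98 ± 1.16, 17.4 ± 0.970 and 16.6 ± 0.787 TPM, and Lpar6 at 17.0 ± 1.496, 15.2 ± 1.23 and 15.96 ± 0.791 TPM. Lpar2 was at 3.22 ± 0.102, 4.04 ± 0.186 and 3.72 ± 0.123 TPM. The receptors Lpar3 and Lpar5 lay below Lpar1, at 0.422 ± 0.190 and 0.190 ± 0.166 TPM in DMSO, and were not tested.

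**Figure D4:**
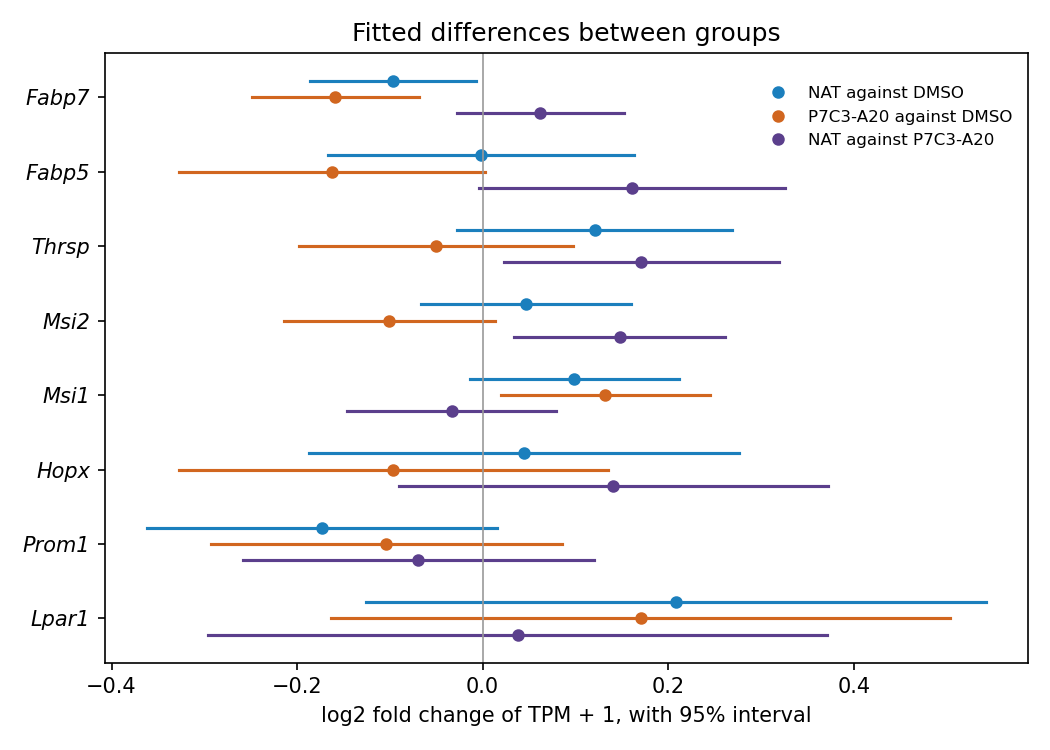
Fitted log2 fold change of TPM + 1 (horizontal) with its 95% interval, unadjusted for the number of genes, for the 8 genes (vertical) in the 3 comparisons (colours). Intervals that leave out 0 are those of Fabp7 in both comparisons with DMSO, Msi1 for P7C3-A20 against DMSO, and Msi2 and Thrsp for NAT against P7C3-A20, and no adjusted p was below 0.158.

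Counted over the members, NAT against DMSO gave 5 positive and 3 negative log2 fold changes, with a median of 0.05 beside 0.03 over all genes. P7C3-A20 against DMSO gave 2 positive and 6 negative, with a median of -0.10 beside 0.01, and NAT against P7C3-A20 gave 6 positive and 2 negative, with a median of 0.10 beside 0.01. Without P7C3-A20 replicate 3, both of the last comparisons gave 4 positive and 4 negative, with medians of 0.0080 and 0.019. With NAT, 3 members (Msi2, Thrsp and Lpar1) had all NAT libraries above all DMSO libraries and 2 (Fabp7 and Prom1) had all below, where 14.1% and 4.89% of all genes did so. With the GC trend removed, Msi2 and Lpar1 overlapped between NAT and DMSO, while Thrsp, Fabp7 and Prom1 did not. Msi1 newly lay apart there, at 184.9 to 187.4 TPM in NAT against 167.3 to 182.9 TPM in DMSO. The share of all genes lying apart with that trend removed was not computed. With P7C3-A20, 1 member (Msi1) was above and 1 (Fabp7) below, against 13.1% and 7.49% of all genes. For NAT against P7C3-A20, 2 members (Msi2 and Thrsp) were above and 0 below, against 13.3% and 8.35%. The 17 tested of 18 other radial glia and stem cell genes were split, with 11 positive and 6 negative for NAT, 9 and 8 for P7C3-A20, and none called. Among them Hes5, a Notch effector, was at 155 ± 15.2 TPM in DMSO, 121 ± 5.22 TPM in NAT and 142 ± 11.2 TPM in P7C3-A20 (log2 fold change for NAT -0.34, limma adjusted p = 0.210).

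P7C3-A20 replicate 3 bore on several of these values. It was the lowest of the 9 libraries for 5 of the 8 members (Fabp7, Fabp5, Msi2, Hopx and Thrsp), where 23.8% of all genes tested had their lowest value there. Against the mean of the other P7C3-A20 libraries it was -18.9% for Fabp5, -13.4% for Msi2, -26.4% for Hopx, -18.6% for Thrsp and -4.01% for Fabp7. With the GC trend removed these differences were -17.6%, -7.65%, -23.5%, -18.8% and 2.06%, and 4 members (Fabp5, Msi2, Hopx and Thrsp) still had their lowest value there, beside 17.2% of all genes. The P7C3-A20 group also had lower summed levels of 4 genes of dividing cells, at 487 to 552 TPM against 527 to 630 TPM in DMSO, none of them called. The part of that difference in the levels of Fabp7 was not tested.

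Some correlations between members were weaker without that library. Over the 9 libraries, Pearson's r of log2(TPM + 1) was 0.92 between Fabp5 and Hopx, 0.91 between Msi2 and Thrsp and 0.88 between Hopx and Thrsp. Without P7C3-A20 replicate 3 these were 0.58, 0.58 and 0.50. Other pairs fell further without it: Fabp5 and Msi2 from 0.85 to 0.18, Fabp5 and Thrsp from 0.85 to 0.31, and Msi2 and Hopx from 0.82 to 0.070. Prom1 and Lpar1, both on few reads, ran against each other, at -0.90 over the 9 libraries and -0.92 without that library. Fabp7 and Msi1 did so at -0.78 and -0.82. With group means removed, these 2 pairs were at -0.85 and -0.52. These are descriptions over 9 libraries that share depth and base composition effects.

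Of the genes with a mean of at least 10 TPM, those whose profile over the 9 libraries was most like that of a member were listed by Pearson's r. They are the highest of 10023 or 10024 genes searched for each member. For Fabp7 they were the zinc finger genes Zfp287 (r = 0.97), Gzf1 (0.97) and Zeb2 (0.97), and for Fabp5 they were Ssb (0.98), Pvrl3 (0.97) and Klhl9 (0.97). Thrsp was most like Opa1 (0.98), Tjp1 (0.98) and the glutamate transporter gene Slc1a3 (0.98), and Hopx most like Fam134b (0.97), Tmem184c (0.97) and Zdhhc2 (0.96). Msi2 was most like Ctso (0.98), Rb1 (0.98) and Setd7 (0.97), with 41.8%, 41.2% and 47.6% GC. Msi1 was most like Ttyh3 (0.97), Ttyh2 (0.97) and Ring1 (0.96), with 61.4%, 55.7% and 56.9% GC. Not every member was matched by genes near its own base composition, taken from the longest GENCODE transcript, which may not be the transcript counted. Prom1 (45.8% GC) was most like Adrb1 (0.94), with 58.8% GC, and for Fabp5 (49.0% GC) the first match, Ssb, had 38.1%. Lpar1 (46.1% GC) was most like Fut11 (0.91), with 47.6% GC. The part of base composition in these likenesses was not tested. With group means removed, r was 0.87 for Fabp7 and Zfp287 and 0.85 for Lpar1 and Fut11, and higher for the other genes named. P7C3-A20 replicate 3 was the lowest library for Fabp7, Fabp5, Msi2, Hopx and Thrsp, and the likenesses were not computed without it.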

How the data were processed

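RNA of 9 libraries (3 DMSO, 3 NAT, 3 P7C3-A20) was prepared for sequencing with a TruSeq RNA kit of Illumina, according to the labels. The authors deposited TPM values per gene symbol. Bowtie 0.12.2 and the builds mm8 and mm9 are named per the submitters' processing notes, with no role given. Not given in the sources used here: the counter, its annotation and its strand setting. The members and gene lists were chosen with earlier results of these data known.

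Genes with at least 1 TPM in at least 3 libraries (13839) were tested with limma 3.58.1 (lmFit, eBayes with trend, R 4.3.3) on log2(TPM + 1), two-sided, with Benjamini-Hochberg adjustment over all of them and a threshold of 0.05. All 9 libraries entered 1 fit with 6 residual degrees of freedom, and intervals are at 95%. The pseudocount of 1 understates fold changes of low genes such as Lpar1. The low values are whole multiples of 1 read per gene, so reads were recovered for 100% of the 19302 genes with any value (tolerance 0.001) and entered voom as an alternative. GC content came from the longest GENCODE vM21 transcript (98.4% of symbols matched) and its trend was removed by a spline. Ratios were compared by exact permutation. Named genes are the 8 members and, from the lists, the most abundant, any called and those with the lowest p per comparison, besides Lpar2, Lpar6, Mid1ip1, Rxrb, Ppard, Fabp3, Crabp2 and the markers given, chosen after their values were seen. Likeness names up to 3 genes per member. The fit was tested on simulated data with 200 changed genes.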

Additional observations from a re-analysis of the deposited data

How the results depend on the processing

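Of 397 values of the members under alternatives, 363 kept direction and side of the threshold, 22 reversed, 12 newly passed (all Fabp7 with voom) and 0 lost a call, there being none to lose. Numbers of genes called over the whole table were small and moved with most settings. For NAT against DMSO (4 called) they were 2 with a minimum of 5 TPM, 1 with a pseudocount of 0.1, 7 with only the 6 libraries compared, 29 with voom, 55 with voom and the GC trend removed, and 1 to 11 with 1 library left out. For P7C3-A20 against DMSO (3 called) they were 0, 0, 5, 273, 49 and 1 to 10 in that order. For NAT against P7C3-A20 (0 called) they were 5 with only the 6 libraries, 301 with voom, 65 with voom and the GC trend removed, and 0 to 1 with 1 library left out. Voom on recovered reads with the GC trend removed, its runs without 1 library and the GC removal without P7C3-A20 replicate 3 were chosen after seeing the data.

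With the replicate block, 7 genes were called between P7C3-A20 and DMSO and 1 between the compounds, and no member passed. The replicate numbers were not taken as pairs: same-numbered libraries correlated in their deviations from the group means at -0.0239 to 0.124. Only replicate 1 of P7C3-A20 with replicate 1 of DMSO exceeded 0.1.

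Reversals were as follows. Quantile normalization turned Fabp7 from -0.10 to 0.28 and Fabp5 to 0.032 for NAT against DMSO, and Fabp7 from -0.16 to 0.14 for P7C3-A20 against DMSO. Removing the GC trend turned NAT against P7C3-A20 to -0.018 for Fabp7, 0.032 for Msi1 and -0.0078 for Lpar1, and with voom to -0.026 and 0.037 for Fabp7 and Msi1. Removing it without P7C3-A20 replicate 3 gave 0.044 for Hopx and 0.011 for Thrsp (P7C3-A20 against DMSO), and -0.0085 for Fabp7, 0.0050 for Msi1, -0.030 for Hopx and -0.050 for Lpar1 (NAT against P7C3-A20). Leaving out 1 library gave -0.024 to 0.043 for Fabp5 and -0.013 to 0.10 for Hopx (NAT against DMSO), -0.19 to 0.049 for Hopx and -0.11 to 0.048 for Thrsp (P7C3-A20 against DMSO), -0.0038 to 0.24 for Hopx and -0.029 to 0.083 for Lpar1 (NAT against P7C3-A20), and -0.077 to 0.050 for the ratio of Fabp7 to Fabp5 (P7C3-A20 against DMSO). The cause was not tested. Depth limits Lpar1 and Prom1.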
